A study of Mus musculus with 36 samples.

Results

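Mitochondrial chaperones and proteases are the proteins that fold, refold and degrade polypeptides inside the organelle, and 10 of their genes were described here across the brains of Ndufs4 knockout and wild type mice. The 10 genes were Hspd1, Hspe1, Hspa9, Trap1, Lonp1, Clpp, Clpx, Yme1l1, Afg3l2 and Htra2, found by symbol in a table of 56980 genes. All 10 were among the 25601 genes that passed the filter on low counts. The rule that names them uses no measured value, but they were chosen with earlier results of these data known.

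PolyA-selected RNA was sequenced from 36 mice of 37 to 45 days of age. Ndufs4 codes for an accessory subunit of complex I of the respiratory chain, and its loss in mice serves as a model of Leigh syndrome. Mice without Ndufs4 (knockout, KO) and wild type mice (WT) were dosed by gavage for 3 days with vehicle or with the complex I inhibitor CP2. The sample titles further carry the letter F or M. The groups KO vehicle F, WT vehicle F, KO CP2 F and WT CP2 F held 5 mice each, as did KO CP2 M and WT CP2 M, whereas KO vehicle M and WT vehicle M held 3 mice each. The labels give neither the strain nor the way the gene was disrupted. They name brain as the tissue of every sample, while the design text names hippocampus and cortex, and how much of each region a sample holds is not known.

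Most mitochondrial proteins are imported unfolded from the cytosol. Hsp60, with its lid Hsp10, and mortalin fold them in the matrix, and proteases of the matrix, inner membrane and intermembrane space remove those that fail. When misfolded protein builds up, cells raise the transcripts of these chaperones and proteases through the mitochondrial unfolded protein response, in mammals by way of ATF4, ATF5, CHOP and HSF1, and matrix proteases such as LONP1 also clear unassembled subunits of the respiratory chain.

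Libraries held 4.61e+07 to 8.86e+07 gene counts (median 5.47e+07). The percent of reads that the counting placed outside every annotated gene, written below as reads outside annotated genes, ran from 5.09% to 13.2%. Reads left without a gene for other reasons are not part of this percent. Where the reads outside annotated genes map, introns included, is not given, and whether their percent is technical or biological is not known. KO vehicle F samples averaged 9.24% ± 2.56 and WT vehicle F samples 5.99% ± 0.740 (SD, n = 5 each). KO vehicle M samples averaged 12.1% ± 0.885 (SD, n = 3), WT vehicle M samples 10.2% ± 1.22 (SD, n = 3) and KO CP2 M samples 7.33% ± 1.40 (SD, n = 5), so the percent differed between groups compared below. Ndufs4 itself was lower in every KO sample than in every WT sample of the same treatment and letter, with 27.4 to 39.1 CPM (read counts scaled to a common library size) in KO and 38.9 to 62.8 CPM in WT. Its log2 fold change lay between -0.66 and -0.34 in the 4 comparisons of KO with WT, all with an adjusted p of 0.00895 or less (edgeR). The 5 neuronal marker genes summed to between 3.34e+03 and 5.64e+03 CPM in all samples. All levels below are CPM on TMM library sizes, fold changes are from edgeR's quasi-likelihood test fitted on all 36 samples, and a gene was called at a Benjamini-Hochberg adjusted p under 0.05 over the 25601 genes. The labels do not describe the animals beyond these groups, so the p-values measure the spread between these samples.

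The members were expressed in every sample, with the 4 chaperones and Clpp highest per kilobase of exon. The lowest count of any member in any sample was 584, for Htra2. Scaled to the union of annotated exons, Hspd1 had the highest median level at 53.1 CPM per kilobase, followed by Hspa9 at 44.9, Hspe1 at 33.5, Clpp at 28.6 and Trap1 at 22.7 CPM per kilobase. The membrane proteases and the other matrix protease genes were lower: Lonp1 at 16.4, Yme1l1 at 11.1, Clpx at 9.71, Afg3l2 at 8.10 and Htra2 at 5.44 CPM per kilobase. Over the 36 samples, neighbours in this order overlapped in range, except Trap1 and Lonp1, Lonp1 and Yme1l1, and Afg3l2 and Htra2. The highest sample had 1.25 times the level of the lowest for Lonp1 and 1.26 times for Hspa9. The ratio was 1.55 for Hspd1 and Clpp, 1.99 for Htra2 and 2.13 for Hspe1, the widest range of the 10.

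Hspd1 and Hspe1, which encode the Hsp60 and Hsp10 subunits of the matrix folding chamber, are neighbours on chromosome 1 read in opposite directions from a common promoter. The RefSeq windows around their start sites (250 bases before to 50 after, build GRCm38.p6) include a pair that share 95% of their bases as reverse complements. The Hspe1 window is shown because it covers the stretch between both chaperone genes, which fell in KO, at chr1:55087898-55088197 on the plus strand, 5′ to 3′, with capitals on matches to the heat shock element GAANNTTCNNGAA or, on the other strand, TTCNNGAANNTTC.
Hspe1: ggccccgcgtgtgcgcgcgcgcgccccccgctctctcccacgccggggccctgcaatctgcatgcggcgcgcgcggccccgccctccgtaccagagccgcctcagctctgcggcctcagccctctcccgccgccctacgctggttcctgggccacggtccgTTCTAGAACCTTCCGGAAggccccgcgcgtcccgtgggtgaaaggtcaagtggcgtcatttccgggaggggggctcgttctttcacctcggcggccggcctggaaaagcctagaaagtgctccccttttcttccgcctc
The capitals hold 2 overlapping matches, TTCTAGAACCTTC from 89 bases and GAACCTTCCGGAA from 84 bases before the start site. Of 32851 mouse windows of this length, 0.603% held such a match on either strand. Of the members, 7 had windows in the table (8 windows, with none for Hspa9, Afg3l2 and Htra2). The heat shock match was in the shared Hspd1 and Hspe1 windows and in no window of Yme1l1, Clpx, Trap1, Lonp1 or Clpp, which says only that these letters are not in those stretches. The NRF1 element GCGCANGCGC, searched on both strands, matched in the other Hspd1 window alone, and 4.6% of all windows held it.

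In vehicle-treated mice the question was whether loss of Ndufs4 changes the transcripts of this protein quality control system. Averaged over F and M, 3 of the 4 chaperone genes were called lower in KO brain and 0 of the 6 protease genes were called, against 6.67% of all tested genes called and 3.8% called lower. The Hsp60 and Hsp10 transcripts fell in KO mice and Hspe1 had the larger fold change. No member was called higher.

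Hspd1, the Hsp60 chaperonin, had 138, 127, 122, 130 and 134 CPM in the KO vehicle F mice and 171, 154, 149, 155 and 164 CPM in WT vehicle F. Every KO sample was below every WT sample. In M, the KO vehicle samples had 119, 130 and 120 CPM and the WT vehicle samples 163, 141 and 128 CPM, with the lowest WT sample inside the KO range. Averaged over F and M, Hspd1 fell with a log2 fold change of -0.26 (SE 0.054, adjusted p 0.00268, edgeR), which is 0.838 times the WT level. The change was called in F (-0.28, SE 0.066, adjusted p 0.00979) but not in M (-0.23, SE 0.085, adjusted p 0.217), and the difference between F and M was not called (adjusted p 0.959, edgeR).

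Hspe1, the Hsp10 cofactor that closes the chamber, had 48.0, 49.4, 43.1, 47.6 and 44.6 CPM in KO vehicle F and 66.7, 60.3, 55.8, 60.6 and 55.9 CPM in WT vehicle F. The groups again did not overlap. In M the KO vehicle mice had 38.1, 32.3 and 32.6 CPM and the WT vehicle mice 51.5, 51.5 and 35.7 CPM. The WT sample at 35.7 CPM, titled L303, lay between the KO samples. The averaged log2 fold change was -0.40 (SE 0.079, adjusted p 0.00162, edgeR), or 0.760 times WT. It was -0.36 in F (SE 0.097, adjusted p 0.0224) and -0.43 in M (SE 0.125, adjusted p 0.102), and without L303 the M value became -0.59 with an adjusted p of 0.0221. The F call was lost without L281, L252 or L295, with adjusted p of 0.0767, 0.0773 and 0.0520 (edgeR).

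Trap1, the matrix Hsp90 paralogue, had 55.1, 48.5, 49.8, 57.6 and 58.0 CPM in KO vehicle F and 57.7, 59.1, 58.5, 69.4 and 62.4 CPM in WT vehicle F. The highest KO sample exceeded the lowest WT sample by a small margin. In M it had 58.3, 52.9 and 54.2 CPM in KO vehicle and 53.6, 70.6 and 65.5 CPM in WT vehicle, so the ranges overlapped. The averaged log2 fold change was -0.195 (SE 0.057, adjusted p 0.0321, edgeR). This call rested on several samples, since it was lost in 7 of the 16 fits that left out 1 sample (L281, L295, L296, L319, L322, L300 or L303), with an adjusted p of up to 0.164. The Trap1 promoter is shown beside that of Hspe1 because it lacks the heat shock match and holds, in capitals, the palindromic cyclic AMP response element TGACGTCA, at chr16:4077761-4078060 on the minus strand of GRCm38.p6 in RefSeq.
Trap1: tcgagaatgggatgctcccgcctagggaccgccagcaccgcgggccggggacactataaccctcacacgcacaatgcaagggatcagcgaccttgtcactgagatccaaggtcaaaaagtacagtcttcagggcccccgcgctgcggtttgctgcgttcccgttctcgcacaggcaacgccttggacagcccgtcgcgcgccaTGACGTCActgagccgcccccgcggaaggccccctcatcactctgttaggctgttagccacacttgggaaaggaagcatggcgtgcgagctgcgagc
The match starts 47 bases before the start site, and 1.79% of the 32851 windows held this motif.

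Together 3 of 10 members were called lower and 0 higher in KO vehicle mice averaged over F and M. In F 2 of 10 members were called, against 4.96% of all genes, and the same 2 had ranges that did not overlap between KO and WT, against 2.87% of all genes with KO entirely lower. In M 0 of 10 were called, against 0.516% of all genes. The median log2 fold change of the 10 members was -0.040, and that of all tested genes was 0.022. It was -0.23 for the 4 chaperones and 0.054 for the 6 proteases.

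Trap1 levels moved with the percent of reads outside annotated genes, and Hspd1 and Hspe1 had weaker relations to it. With group means removed, Trap1 fell with that percent over the 36 samples with Pearson's r = -0.615 (adjusted permutation p 0.0083) and Spearman's rho = -0.611 (adjusted permutation p 0.0097). Leaving out the 2 samples farthest from the median of that percent gave r = -0.516. Hspd1 had r = -0.376 and rho = -0.406 (adjusted permutation p 0.0718 and 0.0962, and r = -0.326 without those 2 samples), and Hspe1 had r = -0.363 and rho = -0.371 (adjusted permutation p 0.0718 and 0.0962, and r = -0.433 without them). Of the 10 relations computed, a relation per member, that of Trap1 alone was called. When the percent entered the edgeR fit as a covariate, the averaged log2 fold changes in vehicle-treated KO mice were -0.19 for Hspd1 (adjusted p 0.0998), -0.30 for Hspe1 (adjusted p 0.0841) and -0.092 for Trap1 (adjusted p 0.521). The same fit called 1.14% of all genes in this comparison, so 0 of 10 members and far fewer genes of the whole table passed. In the F comparison it gave -0.21 for Hspd1 (adjusted p 0.201) and -0.24 for Hspe1 (adjusted p 0.346). The KO vehicle mice had the higher mean percent in both letters, and its part in the lower chaperone levels was not tested beyond this fit.

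**Figure D1:**
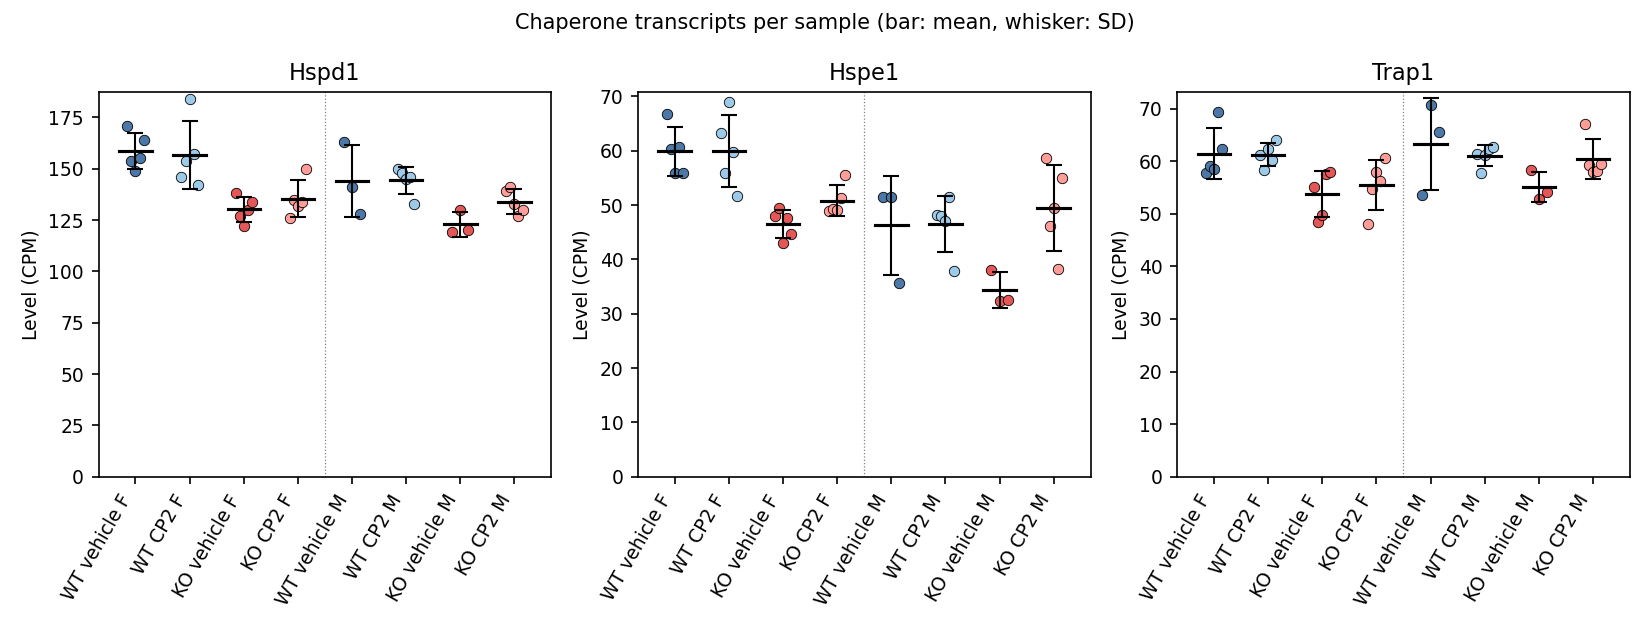
Levels in CPM (y axis, from 0) of Hspd1, Hspe1 and Trap1 in each of the 36 samples by group, with the mean as a bar and the SD as whiskers. In F the KO vehicle samples of Hspd1 (122 to 138 CPM) and Hspe1 (43.1 to 49.4 CPM) lie below all WT vehicle samples, while in M the groups overlap.

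**Figure D2:**
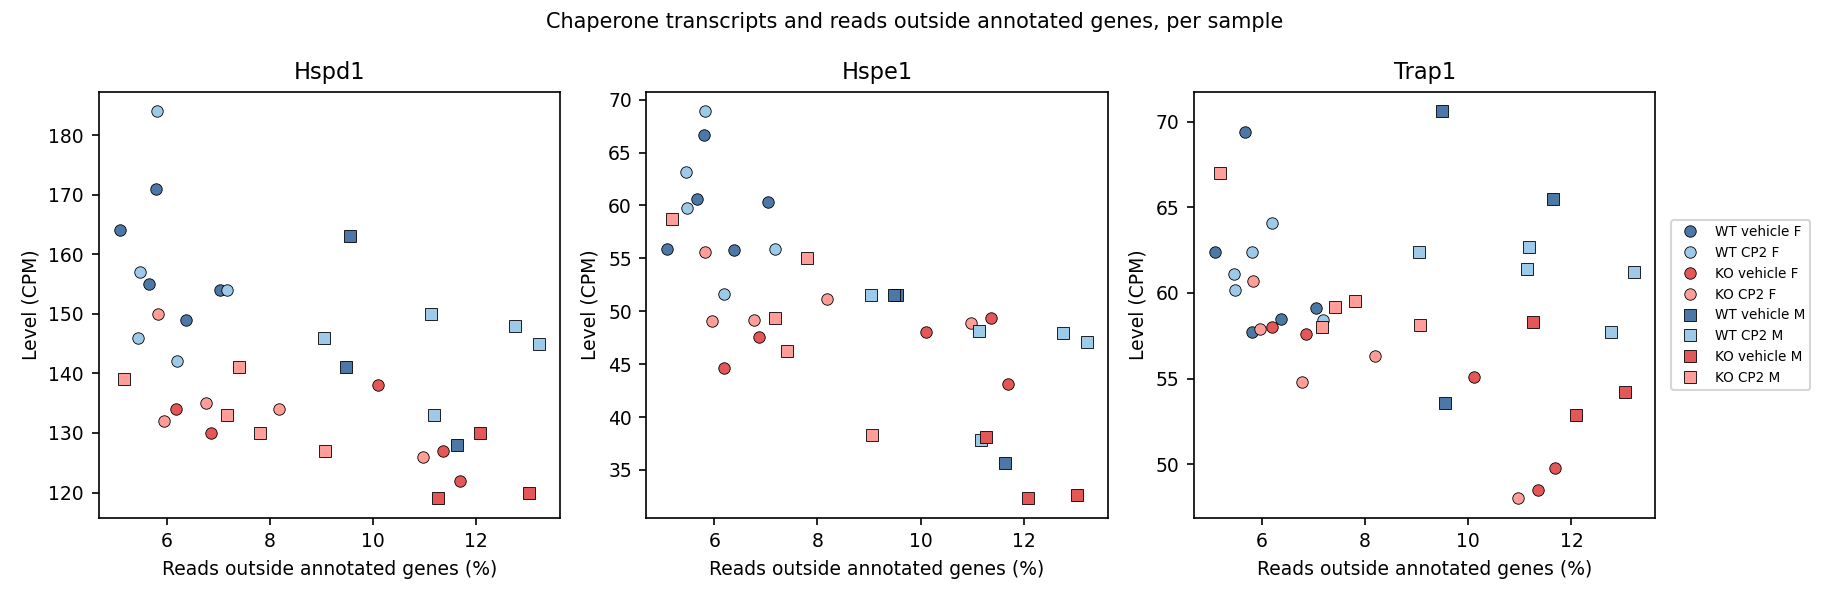
Levels in CPM (y axes, not from 0) of Hspd1, Hspe1 and Trap1 against the percent of reads outside annotated genes (x axis), with a point per sample, circles for F and squares for M. KO vehicle M samples lie at 11.3% to 13.0% and all WT vehicle F samples at 5.09% to 7.04%.

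Hspa9, or mortalin, the Hsp70 that pulls proteins through the import pore, had 193 to 212 CPM in KO vehicle F and 190 to 210 CPM in WT vehicle F. Its averaged log2 fold change was -0.028 (SE 0.043, adjusted p 0.763, edgeR). Among the matrix proteases, Lonp1 had 66.2 to 79.1 CPM in KO vehicle F and 71.8 to 78.2 CPM in WT vehicle F, with an averaged value of -0.052 (adjusted p 0.562). Clpp, the proteolytic chamber of ClpXP, had 28.4 to 41.2 CPM in KO vehicle F and 37.0 to 39.8 CPM in WT vehicle F, and its averaged value of -0.16 was the lowest of the proteases (SE 0.075, adjusted p 0.185). Clpx, its unfoldase, had an averaged value of 0.066 (adjusted p 0.605). The chamber and its unfoldase therefore had averaged estimates of opposite sign, neither of them called. The signs were opposite in F (-0.17 for Clpp and 0.15 for Clpx), while in M both were below 0 (-0.16 and -0.018).

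The membrane proteases showed small differences between the genotypes with vehicle. Yme1l1, the i-AAA protease facing the intermembrane space, had an averaged log2 fold change of 0.053 (SE 0.052, adjusted p 0.602). Afg3l2, the m-AAA protease facing the matrix, had 0.056 (SE 0.052, adjusted p 0.577). Htra2, a serine protease of the intermembrane space, had 0.075 (SE 0.111, adjusted p 0.754, all edgeR), and its ranges of 10.5 to 20.8 CPM in KO vehicle F and 11.2 to 19.2 CPM in WT vehicle F covered each other.

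Under CP2, the comparison of KO with WT asks the same question in mice of both genotypes dosed with the complex I inhibitor. Hspd1 was the only member called, again lower in KO, against 11.6% of all tested genes called and 6.07% called lower. As a set, the members therefore had no larger share called than all genes. Hspe1, Trap1 and the rest were not called. Hspd1 had 126, 135, 132, 134 and 150 CPM in KO CP2 F and 146, 154, 184, 157 and 142 CPM in WT CP2 F. In M it had 139, 141, 133, 127 and 130 CPM in KO CP2 and 150, 148, 145, 146 and 133 CPM in WT CP2. The KO values lay in the lower part of the range, with overlap in both letters and with WT sample L257 well above the others at 184 CPM. The averaged log2 fold change was -0.16 (SE 0.046, adjusted p 0.0197, edgeR). Leaving out L257 gave -0.13 with an adjusted p of 0.0600, and a covariate for reads outside genes gave -0.19 with an adjusted p of 0.00524. That percent was higher in WT than in KO in CP2 M (11.5% ± 1.64 against 7.33% ± 1.40, SD, n = 5 each) and lower in WT in CP2 F (6.02% ± 0.714 against 7.54% ± 2.13, SD, n = 5 each).

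Hspe1 had 48.9, 49.2, 49.1, 51.2 and 55.6 CPM in KO CP2 F and 63.2, 55.9, 68.9, 59.8 and 51.6 CPM in WT CP2 F, with 1 WT sample within the KO range. In M it had 58.7, 46.2, 49.4, 38.3 and 55.0 CPM in KO CP2 and 48.1, 47.9, 47.1, 51.5 and 37.8 CPM in WT CP2. The estimates had opposite signs in F (-0.24, adjusted p 0.202) and M (0.092, adjusted p 0.623), and their difference was not called (-0.33, SE 0.137, adjusted p 0.247, edgeR). Trap1 had an averaged value of -0.079 (adjusted p 0.345), and with the covariate of reads outside genes it became -0.135 (adjusted p 0.0460, edgeR). In F alone 0 of 10 members were called, although Hspd1 had an adjusted p of 0.0307 without L234 and 0.0461 without L311 (edgeR), against 2% of all genes, and in M alone 0 of 10, against 9.99%. The median log2 fold change was -0.020 over the 10 members and 0.012 over all genes.

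The proteases under CP2 had averaged log2 fold changes from -0.071 for Lonp1 (adjusted p 0.284) to 0.13 for Clpx (SE 0.056, adjusted p 0.138, edgeR). Clpx had 34.0 to 42.7 CPM in KO CP2 F and 29.7 to 37.7 CPM in WT CP2 F, and its estimate was above 0 in both letters. Clpp (0.012, adjusted p 0.939), Afg3l2 (0.0089, adjusted p 0.935) and Hspa9 (0.027, adjusted p 0.721) had estimates near 0, Yme1l1 had -0.049 (adjusted p 0.552) and Htra2 had 0.098 (adjusted p 0.587).

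**Figure D3:**
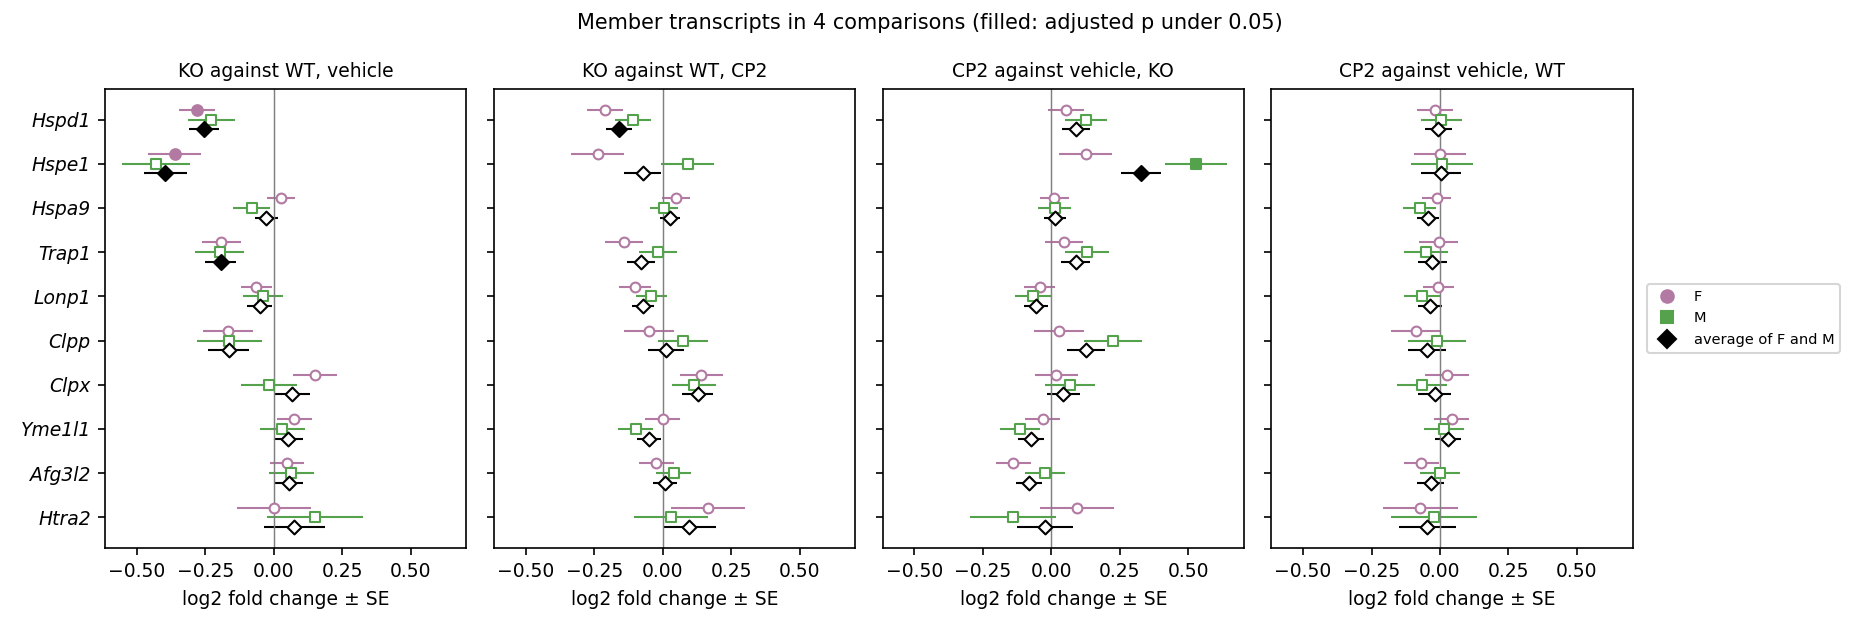
Log2 fold change with its SE (x axis) of the 10 members in 4 comparisons, for F (circles), M (squares) and their average (diamonds), with filled symbols for an adjusted p under 0.05. Filled symbols are at Hspd1, Hspe1 and Trap1 only, and the panel of CP2 in WT has none.

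CP2 against vehicle asks whether the inhibitor itself changes these transcripts in either genotype. In KO mice Hspe1 rose, and in WT mice 0 of 10 members were called. The KO vehicle samples also serve in the comparison of KO with WT, so the lower Hspe1 there and the rise here share the same 8 mice and are not separate evidence. In KO M, Hspe1 went from 38.1, 32.3 and 32.6 CPM with vehicle to 58.7, 46.2, 49.4, 38.3 and 55.0 CPM with CP2. The lowest CP2 sample, L298 at 38.3 CPM, was just above the highest vehicle sample. The log2 fold change was 0.53 (SE 0.114, adjusted p 0.00403, edgeR), or 1.44 times the vehicle level. In KO F, Hspe1 had 48.0, 49.4, 43.1, 47.6 and 44.6 CPM with vehicle and 48.9, 49.2, 49.1, 51.2 and 55.6 CPM with CP2, with overlap, and its value was 0.13 (SE 0.097, adjusted p 0.694).

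Averaged over F and M, Hspe1 rose in KO with a log2 fold change of 0.33 (SE 0.074, adjusted p 0.0092, edgeR), and the difference between F and M was not called (-0.40, SE 0.149, adjusted p 0.176). This made 1 of 10 members called in the average, against 3.91% of all genes, 1 of 10 in M, against 5.1%, and 0 of 10 in F, against 0.0859%. Hspe1 was also the only member without overlap in KO M, where 6.63% of all genes had CP2 entirely higher. Without vehicle sample L322 the adjusted p was 0.0557 for the average and 0.0591 for M. In the fit with a covariate for reads outside genes the values were 0.21 (adjusted p 0.588) and 0.35 (adjusted p 0.424). That fit called 0 of 25601 genes in both comparisons (1931 and 2297 at an unadjusted p under 0.05). With the number in the sample title as a covariate the average was 0.16 (adjusted p 0.497), where that fit called 0.199% of all genes. In M the same fit still called Hspe1, with 2.65% of all genes called. The percent of reads outside genes in KO M was 11.3% to 13.0% with vehicle and 5.18% to 9.06% with CP2, so it did not overlap between the groups. Its part in the rise of Hspe1 was not tested beyond the fit with it as a covariate.

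Hspd1, the partner of Hspe1, had 119, 130 and 120 CPM in KO vehicle M and 139, 141, 133, 127 and 130 CPM in KO CP2 M. Its averaged log2 fold change in KO was 0.090 (SE 0.050, adjusted p 0.349, edgeR). Trap1 had 0.088 (SE 0.054, adjusted p 0.399) and Hspa9 0.012 (SE 0.040, adjusted p 0.920). Of the proteases, Clpp had the highest estimate (0.13, SE 0.070, adjusted p 0.337), with 26.6 to 34.2 CPM in KO vehicle M and 31.0 to 37.3 CPM in KO CP2 M, and Afg3l2 the lowest (-0.081, SE 0.048, adjusted p 0.388). The median over the 10 members was 0.028 and that over all genes was 9.892e-05.

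In WT mice the averaged log2 fold changes with CP2 lay between -0.049 for Clpp and 0.029 for Yme1l1, all with an adjusted p of 1 (edgeR). Hspe1 had 0.0038 (SE 0.074) and Hspd1 -0.0060 (SE 0.050). No gene of the 25601 was called in this comparison (0%), where 1031 genes had an unadjusted p under 0.05 and DESeq2 called 0 genes. The mean percent of reads outside genes was 5.99% with vehicle and 6.02% with CP2 in WT F, and 10.2% and 11.5% in WT M.

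The genotype by CP2 interaction compares the CP2 effect in KO with that in WT. Here 0 of 10 members were called in the average, against 0.715% of all genes, 0 in F, against 0%, and 0 in M, against 1.98%. Hspe1 came nearest, with 0.32 (SE 0.104, adjusted p 0.122) in the average and 0.52 (SE 0.158, adjusted p 0.0718) in M by edgeR, and it had 0.50 (adjusted p 0.0483) in M by DESeq2. In M, DESeq2 called 4.13% of all genes, against the 1.98% of edgeR. In edgeR, leaving out L303 gave an adjusted p of 0.0316 in the average and 0.0109 in M, and leaving out L298 gave 0.0478 and 0.0207. The estimates of Hspd1 (0.096, adjusted p 0.560), Trap1 (0.12, adjusted p 0.497) and Clpp (0.18, adjusted p 0.419) were above 0 and that of Yme1l1 was -0.10 (adjusted p 0.513).

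Other genes of mitochondrial protein quality control were tested only in the fit without covariates. Their values with a covariate for reads outside genes were not looked at. That covariate fit called 1.14% of all genes for KO against WT with vehicle, where the fit without covariates called 6.67%. For CP2 in KO mice it called 0 of 25601 genes, so no call of these lists was kept there. Of 18 other chaperones and import factors, 1 rose and 4 fell in KO vehicle mice (median -0.10), against 2.87% and 3.8% of all genes. Bcs1l, which inserts the Rieske protein into complex III, fell with a log2 fold change of -0.55 (SE 0.106, adjusted p 0.00117, edgeR), from 15.7 ± 1.71 CPM in WT vehicle F to 10.2 ± 0.781 CPM in KO vehicle F (SD, n = 5 each). Dnajc15, a J-protein of the import motor, fell with -0.35 (SE 0.068, adjusted p 0.00127), and Clpb, a disaggregase of the intermembrane space, with -0.24 (SE 0.055, adjusted p 0.00690). The remaining called genes of this list, chosen after their values were seen, were Phb, a prohibitin of the inner membrane (-0.29, adjusted p 0.00768), and Timm9, a carrier of the intermembrane space (0.27, adjusted p 0.0157, edgeR). Under CP2, 2 of the 18 rose and 2 fell, against 5.54% and 6.07% of all genes, with Bcs1l at -0.31 (adjusted p 0.0229), Clpb at -0.14 (adjusted p 0.0485) and Hscb, a co-chaperone of iron-sulfur cluster assembly, at 0.54 (SE 0.117, adjusted p 0.00167). Stoml2, a scaffold of the inner membrane also named after its value was seen, had 0.13 (adjusted p 0.0449, edgeR).

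Of 13 other mitochondrial proteases and peptidases, 1 rose and 0 fell in KO vehicle mice (median -0.14), against the same 2.87% and 3.8% of all genes. It was Spg7, the m-AAA partner of Afg3l2, at 0.24 (SE 0.053, adjusted p 0.00384, edgeR), and it also rose under CP2 (0.21, SE 0.046, adjusted p 0.00214), whereas Afg3l2 was not called in either. Under CP2, 2 of the 13 rose and 2 fell, against 5.54% and 6.07%: Parl, a rhomboid protease of the inner membrane, had 0.25 (SE 0.053, adjusted p 0.00119), Atp23, a metalloprotease of the intermembrane space, had -0.32 (SE 0.093, adjusted p 0.0181) and Pitrm1, which degrades cut presequences, had -0.15 (SE 0.051, adjusted p 0.0388). Of 7 genes of the stress relay, 1 fell with vehicle and 2 fell with CP2, against 3.8% and 6.07% of all genes called lower. Hsf1, the heat shock factor, fell in KO with vehicle (-0.25, SE 0.066, adjusted p 0.0157) and with CP2 (-0.41, SE 0.058, adjusted p 9.76e-06). Its levels were 21.8 to 24.8 CPM in KO vehicle F and 28.3 to 31.4 CPM in WT vehicle F, and 23.8 to 26.7 CPM in KO CP2 M and 30.3 to 38.0 CPM in WT CP2 M. Neither pair overlapped, against 2.87% and 6.33% of all genes with KO entirely lower, whereas KO CP2 F with 18.5 to 26.7 CPM overlapped WT CP2 F with 26.4 to 32.1 CPM. KO vehicle M with 28.6 to 30.9 CPM lay just below WT vehicle M with 31.0 to 33.5 CPM. In that comparison 10.3% of all genes had KO entirely lower. Atf4, a factor of the integrated stress response, fell in KO under CP2 (-0.33, SE 0.080, adjusted p 0.00493). With CP2 in KO mice, against 2.08% of all genes called higher and 1.84% called lower, 1 of the 18 chaperones and import factors rose (Dnajc19, 0.27, adjusted p 0.0254) and 1 fell (Timm44, -0.30, adjusted p 0.0132, edgeR, both named after their values were seen), and 0 of the 13 proteases and 0 of the 7 relay genes were called. In the interaction 0 genes of these lists were called.

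Cell type markers were measured in the same samples and tested only in the fit without covariates. In bulk tissue, fewer cells of a type and less RNA per cell cannot be told apart. In KO vehicle mice 4 of 4 haemoglobin genes fell, against 3.8% of all genes called lower (log2 fold changes from -2.42 to -1.90), with summed levels of 71.7 to 124 CPM in KO vehicle F against 83.3 to 377 CPM in WT vehicle F, and 36.7 to 82.8 CPM in KO vehicle M against 111 to 634 CPM in WT vehicle M. Among 4 hippocampal CA markers the averaged estimates were above 0 in 2 and below 0 in 2 (from -0.32 to 0.56). Wfs1 was called higher (0.56, adjusted p 0.00811, edgeR), against 2.87% of all genes, and in F Spink8 was called lower (-1.39, adjusted p 0.0166), against 2.94%. In M all 4 CA estimates were above 0 with 0 called. The WT vehicle samples summed to 210 to 242 CPM, while the KO vehicle samples, all higher, reached 344 CPM. Of all genes taken singly, 10.5% had KO entirely higher in that comparison.

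The sums of neuronal and of oligodendrocyte markers also did not overlap between the vehicle groups in M. With 3 mice per group, 20.9% of all genes taken singly did not overlap there. The 5 neuronal markers summed to 4.78e+03 to 5.04e+03 CPM in KO vehicle M and 3.79e+03 to 4.19e+03 CPM in WT vehicle M, with 5 of 5 estimates above 0 in M and 5 of 5 below 0 in F. The 4 oligodendrocyte markers summed to 6.34e+03 to 7.23e+03 CPM in KO vehicle M and 7.61e+03 to 8.13e+03 CPM in WT vehicle M, with 4 of 4 estimates below 0 in both letters. Of the markers of both lists 0 were called in either letter (edgeR), and 2 neuronal and 1 oligodendrocyte markers had an unadjusted p under 0.05 in M, with 1 and 0 in F. With CP2 in KO mice, 2 of 4 oligodendrocyte and 2 of 4 microglial markers rose, against 2.08% of all genes called higher, and their summed levels in M were 6.34e+03 to 7.23e+03 CPM and 175 to 208 CPM with vehicle and 6.39e+03 to 1.21e+04 CPM and 198 to 244 CPM with CP2. Under CP2, 1 of 4 astrocyte, 1 of 4 oligodendrocyte, 2 of 4 microglial and 1 of 4 CA markers were called higher in KO than in WT, against 5.54% of all genes. The CA markers other than Wfs1 had estimates below 0 there, and the list had a median of -0.19 in the average and -0.51 in M. The part of these cell types in the chaperone differences was not tested. With a score of the CA markers as a covariate, all 8 called values of the members kept their direction and their call. This score is the mean of the 4 CA markers, whose estimates differed in sign. It holds no marker of the other cell types, so it does not test their part.

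The members were next compared with each other within groups, after the mean of each group was removed from log2 CPM, over the 36 samples. Of 45 pairs 4 were called, all of them positive, and r ranged from -0.425 to 0.63 with a median of 0.124. The share of called pairs among all genes was not computed, so this count does not set the members apart from other genes. Clpp and Htra2 rose and fell together with Pearson's r = 0.63 (adjusted permutation p 0.0027) and Spearman's rho = 0.661 (adjusted permutation p 0.00135). Without the 2 farthest samples r was 0.594. Hspe1 and Clpp had r = 0.552 (adjusted permutation p 0.0197) and rho = 0.556 (adjusted permutation p 0.0328), and r = 0.456 without the 2 farthest samples.

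Hspd1 and Hspe1, the chamber and its lid, had r = 0.604 (adjusted permutation p 0.0197), rho = 0.49 (adjusted permutation p 0.0852) and r = 0.543 without the 2 farthest samples. Lonp1 and Htra2 had r = 0.618 (adjusted permutation p 0.0197), rho = 0.548 (adjusted permutation p 0.0519) and r = 0.598 without them. By ranks, therefore, 2 pairs were called, those of Clpp with Htra2 and with Hspe1. After the percent of reads outside genes was also removed, Hspd1 and Hspe1 had r = 0.541 (adjusted permutation p 0.0396), and 5 pairs were called. The lowest r, -0.425 between Yme1l1 and Htra2, was not called.

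**Figure D4:**
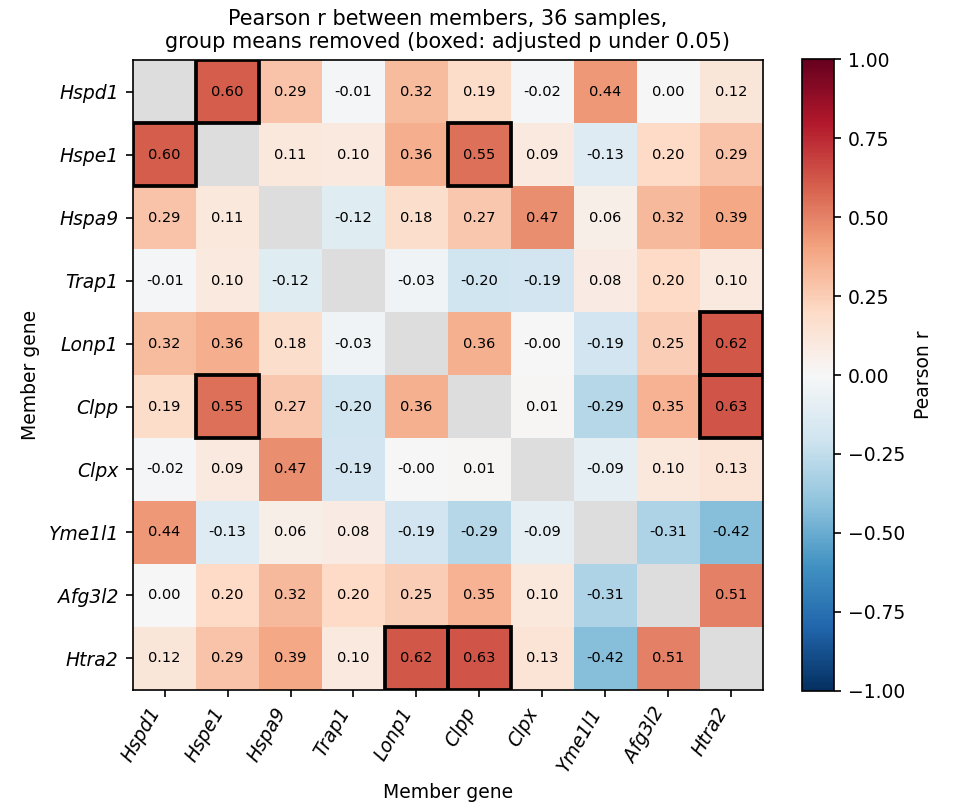
Pearson's r between each pair of members over the 36 samples with group means removed (colour from -1 to 1, both axes list the 10 genes), with boxes around pairs with an adjusted p under 0.05. The 4 boxed pairs join Hspd1 with Hspe1, Hspe1 with Clpp, Clpp with Htra2 and Lonp1 with Htra2.

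Some of these counts could include reads of other genes or lack reads from exons shared with them. Hspd1 and Hspe1 share 112 exon bases on opposite strands, which is 4.24% of Hspd1 and 7.60% of Hspe1 in the GENCODE M21 annotation. Htra2 shares 753 bases with Aup1 and 535 with Loxl3 (25.6% and 18.2% of its exons), and Trap1 shares 54 bases with Dnase1 (2.10%). Whether counting used strand is not given in the sources used here, so reads from these stretches are uncertain. Counts in annotated pseudogenes were 0.349% of the Hspd1 count over 5 copies, 0.364% of the Hspe1 count over 6 copies and 0.00995% of the Hspa9 count in 1 copy.

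Outside the members, the genes whose levels most resembled 3 of them were found by Pearson's r over the 36 samples with group means removed, among 15419 genes, as a description with no test. The samples share their libraries and depth in every such value. For Hspd1 they were Stip1 (r = 0.837), Hsp90b1 (r = 0.76) and Fkbp4 (r = 0.759). For Lonp1 they were Chchd4 (r = 0.782), Aamp (r = 0.766) and Hnrnpab (r = 0.739), and for Afg3l2 they were Smarcd3 (r = 0.809), Gpr162 (r = 0.769) and Cdkn2d (r = 0.765).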

How the data were processed

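The deposited table holds raw counts per Ensembl gene, which the authors made with STAR, HTSeq and the GRCm39 build, per the submitters' processing notes (versions and strandedness are not given in the sources used here). Its 5 summary rows (12.0% to 19.6% of reads per sample) were left out of library sizes. Symbols from GENCODE M21 matched 91.4% of gene identifiers, and exon lengths and overlaps are from M21. Groups came from the sample titles.

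Genes were filtered with filterByExpr, scaled by TMM and tested in edgeR 4.0.16 (R 4.3.3, robust glmQLFit and glmQLFTest, a coefficient per group), and p-values were adjusted by Benjamini-Hochberg within each comparison at 0.05. Averages weight F and M equally. Correlations used log2 CPM with a prior count of 2 and 100000 permutations of samples within groups, so 1e-05 is the smallest p they can give. The test was checked on simulated counts with changes larger than any called change of the members, so recovery of smaller changes was not checked. Alternatives were RLE size factors, no filter, DESeq2 1.42.0, fits within F or M, leaving out samples, and covariates for reads outside genes, the title number and CA markers. The relation of the members to reads outside genes was chosen after seeing the data.

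The members and lists were chosen with earlier results of these data known. Named genes were the 10 members, Ndufs4, up to 4 genes of each pathway list with the smallest adjusted p in any averaged comparison, and the 3 genes most like Hspd1, Lonp1 and Afg3l2. Phb, Timm9, Stoml2, Dnajc19, Timm44, Wfs1 and Spink8 fall outside this rule and were named after their values were seen. Promoters are from a RefSeq table on GRCm38.p6, and no coordinate was carried between builds.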

Additional observations from a re-analysis of the deposited data

Results flagged for a closer look

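Within each group of 5 samples, each member was checked for a sample whose gap to its nearest neighbour took up most of the group's range. Of 60 combinations of member and group, 3 had such a sample, and chance gives about 1 in 20. Hspd1 in WT CP2 M had its lowest sample, L289, at 133 CPM, where the nearest was 145 CPM. In KO CP2 M, sample L266 was the highest for Trap1, at 67.0 CPM against 59.5 CPM in the nearest, and the lowest for Afg3l2, at 77.7 CPM against 81.0 CPM. L266 also had 5.18% of its reads outside genes, the lowest of its group, where the others had 7.17% to 9.06%. The groups of 3 samples were not checked.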

How the results depend on the processing

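The members had 8 called values over all comparisons. All 8 kept their direction and call with RLE size factors, with no filter on low counts, with the CA marker score, without L266 and L291, and with DESeq2, and all 8 kept their direction in the other fits of all groups. A covariate for reads outside genes took the members called to 0 for KO against WT with vehicle, in the average and in F. That fit called 1.14% and 0.609% of all genes there. For KO against WT with CP2 in the average it took them to 2 (Hspd1 and Trap1), with 11.5% of all genes called. For CP2 in KO it took them to 0, in the average and in M, with 0% of all genes called in both. With the title number as a covariate, CP2 in KO had 0 in the average, against 0.199% of all genes. It kept Hspe1 in M, against 2.65% of all genes. DESeq2 called 1 member (Hspe1) in M for KO against WT with vehicle, where it called 2.15% of all genes and edgeR 0.516%. It also called 1 (Hspe1) for the interaction in M, where it called 4.13% of all genes and edgeR 1.98%. The cause was not tested. Leaving out each sample in turn, the members called ranged in F from 1 to 2 for KO against WT with vehicle (Hspe1 was lost without L281, L252 or L295), from 2 to 3 in the average (Trap1), and from 0 to 1 in M (Hspe1 was gained without L303). For KO against WT with CP2 they ranged from 0 to 1 in the average (lost without L257) and in F (Hspd1 was gained without L234 or L311). For CP2 in KO they ranged from 0 to 1 in the average and in M (lost without L322), and for the interaction from 0 to 1 in the average and in M (Hspe1 was gained without L298 or L303). Pairs of members called within groups were 2 with Spearman's rho and 3 without the 2 farthest samples. No paired analysis was possible because no title number is shared between groups. Groups of 3 limit the M comparisons with vehicle.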
